A study of Mus musculus with 18 samples.

Results

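Mouse embryonic stem cells that carry a doxycycline (Dox)-inducible Hoxc9 gene were differentiated into spinal neurons, and their RNA was compared with that of neurons of the same day in which no Hox gene was induced. The comparison was made up of 6 of the 18 libraries of the series, the 3 of iHoxc9 neurons and the 3 of control neurons, chosen by their labels. Both groups were embryoid bodies at day 4 of a differentiation driven by retinoic acid and the Hedgehog agonist SAG, which gives motor neurons together with spinal interneurons. iHoxc9 neurons came from the line labeled iFlag.Hoxc9 and received Dox at 3 µg/ml for 48 h from day 2. Control neurons came from the line labeled iFlag.Hoxc6, received no Dox and were sequenced in a different run. Each Hox line carries a single copy of its Flag-tagged Hox gene at the Hprt locus on the X chromosome, so control cells carried an uninduced Hoxc6 transgene. The induced Hox gene, the line, the exposure to Dox and the sequencing run therefore cannot be told apart in this comparison. The 3 libraries of iHoxc10 neurons, from the line labeled iFlag.Hoxc10, received the same Dox treatment, were sequenced in the run of iHoxc9 and gave a second comparison within a run, in which the transgene and the line differed. Day 2 progenitors, given beside some results, came from the line labeled iCre, were taken at day 2 without Dox and were sequenced in a separate run, so that line and run cannot be told apart from the day.

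Hox genes lie in 4 clusters, numbered from paralog group 1 to 13, and the position of a gene in its cluster follows the level of the body axis at which it is expressed. Groups 1 to 5 mark the hindbrain and the cervical spinal cord, and Hoxc9 marks the thoracic cord, where it is known to keep the Hox genes of the limb level silent and to favor motor neurons that serve the trunk wall and the sympathetic ganglia. Hox proteins also act in interneurons, and the rise or fall of a gene in a mixed culture like this has 2 possible readings: fewer cells of a type and less RNA per cell cannot be told apart.

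Total counts lay between 24498630 and 32528354 per library, and 3 counts, the level at or under which a gene was treated as not detected, stood for between 0.0883 and 0.119 CPM (counts scaled to library size after TMM normalization, with counting error only). Neuronal markers were strong in both groups: Tubb3, the neuronal tubulin, was at 2823, 3041 and 2951 CPM in control and 2753, 2921 and 3584 CPM in iHoxc9 neurons. The second control library stood apart in genes of dividing progenitors. In it the 39 cell cycle genes examined summed to 3823 CPM, against 2326 and 2447 CPM in the other two and from 2521 to 2821 CPM in iHoxc9 neurons. At the locus of the transgene, Hprt itself was at 1.25, 2.23 and 1.35 CPM in control and 8.02, 8.01 and 8.76 CPM in iHoxc9 neurons (log2 fold change 2.36, adjusted p = 5.64e-09 by edgeR), and in iHoxc10 neurons it was at 17.7, 16.9 and 19.6 CPM. It was the 1 gene that passed of the 5 tested at the locus. The calls below rest on samples described as independent differentiations of 1 line per group.

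Of 20944 genes tested, 321 (1.53%) were called higher and 245 (1.17%) lower in iHoxc9 neurons. A call needed a log2 fold change past 2 and an adjusted p below 0.01 in edgeR's quasi-likelihood test. At an adjusted p under 0.01 alone, 1456 genes rose (6.95%) and 1494 fell (7.13%), or 1276 and 1742 with no count filter and 1347 and 1652 with DESeq2's size factors, and these calls are what "rose" and "fell" stand for in what follows. Leaving out 1 library at a time left between 472 and 618 genes called by the stricter rule, whereas the number past the adjusted p alone was 1509 without the third control library, 1726 without the first and 1876 without the second iHoxc9 library, and 4135 without the second control library. The median log2 fold change of all genes tested was 0.00. Of the 566 called genes, 269 (47.5%) also differed from iHoxc10 neurons in the same direction within the run, 176 of them higher and 93 lower in iHoxc9. Over all genes tested, 2.60% were higher and 2.40% lower than in iHoxc10 neurons. Both comparisons use the same iHoxc9 libraries, which favors the same direction in both, so the overlap is not separate support. For every gene given library by library below the iHoxc9 and control libraries did not overlap, except for Aldh1a2, Hoxa6, Hoxc6 and Rian. The same held for 565 of the 566 called genes, so a lack of overlap does not set the named genes apart.

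**Figure D1:**
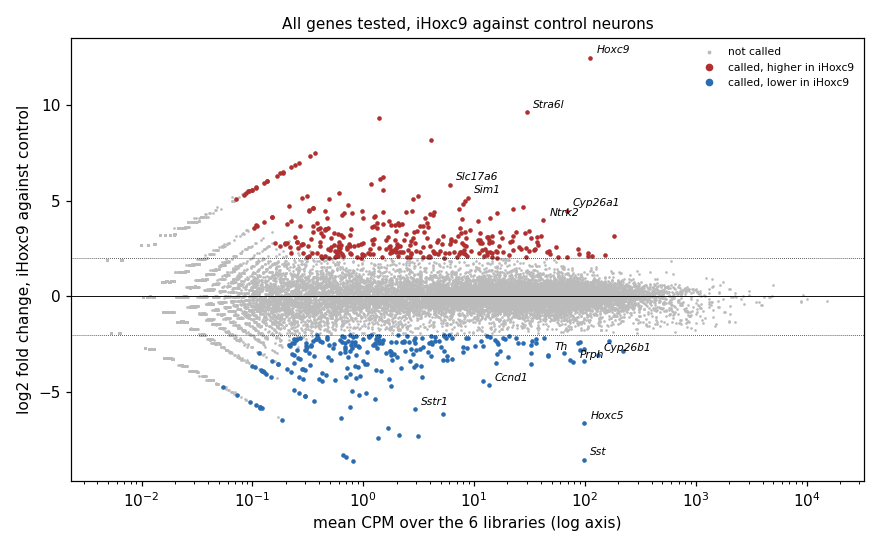
Log2 fold change of every gene tested in iHoxc9 against control neurons (vertical axis) against its mean level in CPM over the 6 libraries (horizontal log axis), with the 321 genes called higher in red, the 245 called lower in blue and dotted lines at a log2 fold change of 2 in either direction. Hoxc9 and Stra6l stand highest among genes above 10 CPM, and Sst and Hoxc5 lowest.

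One property of the libraries moved with these calls. The log2 fold change followed the exon length of a gene: its median was -0.48 in the eighth of genes with the shortest exons (up to 1542 bases) and 0.44 in the eighth with the longest (6932 bases or more), over genes with a mean of at least 1 CPM. In the shortest bin 31.7% of genes fell and 2.41% rose, and in the longest 2.54% fell and 21.8% rose. The same medians were -0.52 and 0.39 in iHoxc10 and -0.37 and 0.31 in iHoxc8 neurons against the same control libraries, both in other runs. Within a run they were -0.14 and 0.00 in iHoxc6 against control and 0.06 and 0.07 in iHoxc9 against iHoxc10. With the length trend of each library taken out (a step chosen after the data were seen), 520 genes were called, of which 491 were among the 566. This step could act only on the 84.12% of genes tested that had a known exon length. Counts of gene groups are given with this step wherever it moved them by more than 1 gene.

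**Figure D2:**
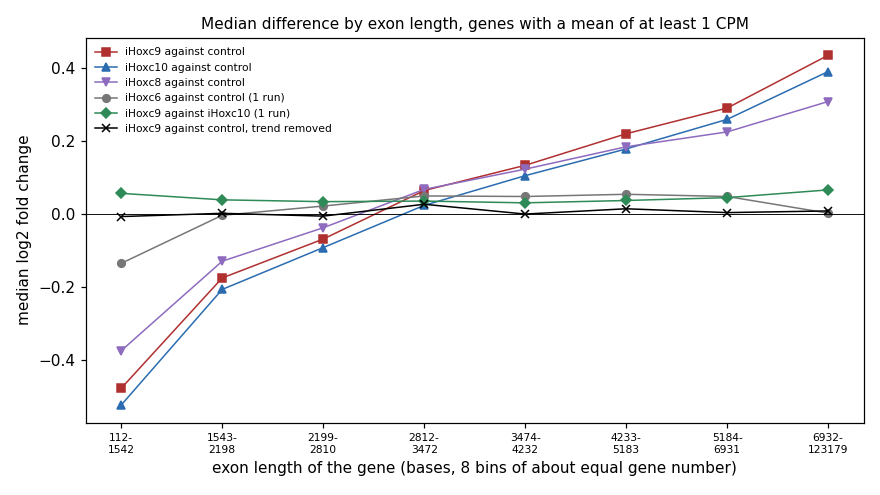
Median log2 fold change (vertical axis) of genes with a mean of at least 1 CPM in 8 bins of exon length in bases (horizontal axis), for 5 comparisons and for iHoxc9 against control with the length trend removed. The 3 comparisons between runs rise from left to right, the 2 within a run lie between -0.14 and 0.07, and the black line lies between -0.01 and 0.03.

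Hoxc9 itself was the gene with the largest change. It was at 0.0321, 0.0385 and 0.0374 CPM in control and 224, 236 and 213 CPM in iHoxc9 neurons, and since control libraries held 1 count each, iHoxc9 neurons were at least 2076-fold higher. A table of counts per gene does not separate transgene reads from those of the endogenous locus (chromosome 15, 102977032 to 102984444, mm10). Per kilobase of exon, Hoxc9 in iHoxc9 neurons stood at 94.5 CPM per kb, between the levels of Hoxb5 (203 CPM per kb) and of Hoxb6 (91.2 CPM per kb), the 2 highest Hox genes of control neurons. The value uses the 2374 bases of exon annotated for the endogenous gene. The transcribed length of the transgene was not known, so the place of Hoxc9 between these genes is uncertain.

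The Hox genes of groups 1 to 5, active in control neurons, were lower almost throughout after Hoxc9 induction. Summed over the 15 genes, control libraries held 1704, 1643 and 1608 CPM and iHoxc9 libraries 288, 339 and 315 CPM, a level below the 884 ± 58.0 CPM (SD, n = 3) of day 2 progenitors. Of the 15 genes 14 fell, against 7.13% of all genes, and the median log2 fold change of the list was -2.38. The number was 14 under each of the alternatives run. The exception was Hoxb1, which was near the limit of detection in both groups (0.212 and 0.0231 CPM on average).

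The size of the fall differed widely within the list. Hoxc5 (chromosome 15, 103014008 to 103017429) was at 204, 192 and 191 CPM in control, 2.00, 2.38 and 1.51 CPM in iHoxc9 and 55.1, 60.7 and 62.6 CPM in iHoxc10 neurons (log2 fold change -6.62, SE 0.199, adjusted p = 2.75e-16 by edgeR). It was the deepest fall of the 15, and the libraries of the 3 groups did not overlap. A second tier was formed by Hoxa4 (-3.54), Hoxd1 (-3.38), Hoxb4 (-3.32), Hoxb5 (-2.85), Hoxa5 (-2.43) and Hoxc4 (-2.38) on the log2 scale. Hoxb5, the most abundant Hox gene of control neurons, was at 360.2, 459 and 333 CPM in control, 43.2, 59.0 and 58.0 CPM in iHoxc9 and 326, 392 and 577 CPM in iHoxc10 neurons. The smallest falls were those of Hoxb2 (-1.63), Hoxb3 (-1.40) and Hoxa2 (-1.06). Hoxb2, Hoxb3, Hoxd3 and Hoxd4 share between 45.1% and 79.3% of their exons with other annotated genes, and their counts are uncertain to that extent. Against iHoxc10 neurons, in the same run, all of the 14 were lower too, against 2.40% of all genes, with log2 fold changes from -4.90 (Hoxc5) to -1.07 (Hoxb2).

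The genes of groups 6 to 9 did not behave as a block. Hoxb6 fell from 189, 160.2 and 188 CPM to 13.2, 21.0 and 18.1 CPM (log2 fold change -3.36, SE 0.213, adjusted p = 1.57e-10 by edgeR), and its neighbors Hoxb7 (-2.47), Hoxb8 (-1.56) and Hoxb9 (-2.86) fell as well. Hoxd8 rose, from a low level, to 1.45, 1.21 and 1.11 CPM (from 0.289, 0.347 and 0.449 CPM, adjusted p = 0.00123 by edgeR). In the HoxC cluster, Hoxc6, which lies between Hoxc5 and Hoxc9, was at 5.17, 2.58 and 1.80 CPM in control and 1.96, 2.33 and 2.15 CPM in iHoxc9 neurons (log2 fold change -0.58, adjusted p = 0.135 by edgeR), and Hoxc8 was at or under 0.157 CPM in all 6 libraries. Of the 17 genes of groups 6 to 13 that could be tested, 2 rose, Hoxc9 among them, 4 fell and 11 did not pass, where 6.95% of all genes rose and 7.13% fell. Only 8 of the 17 had a mean of at least 1 CPM in control or iHoxc9 neurons. Genes under that level held few counts in which a fall could show. iHoxc10 neurons differed here. Hoxc6 was at 49.4, 49.4 and 43.1 CPM and Hoxa6 at 8.93, 11.6 and 6.56 CPM in that line, against 1.96, 2.33 and 2.15 CPM and 1.06, 2.09 and 1.31 CPM in iHoxc9 neurons (log2 fold changes -4.46 and -2.58, adjusted p of 1.44e-10 and 6.42e-05 by edgeR). Without Hoxc9, the group 6 to 13 genes summed to 89.9 ± 15.2 CPM (SD, n = 3) in iHoxc9 and 399.7 ± 21.3 CPM in control neurons.

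**Figure D3:**
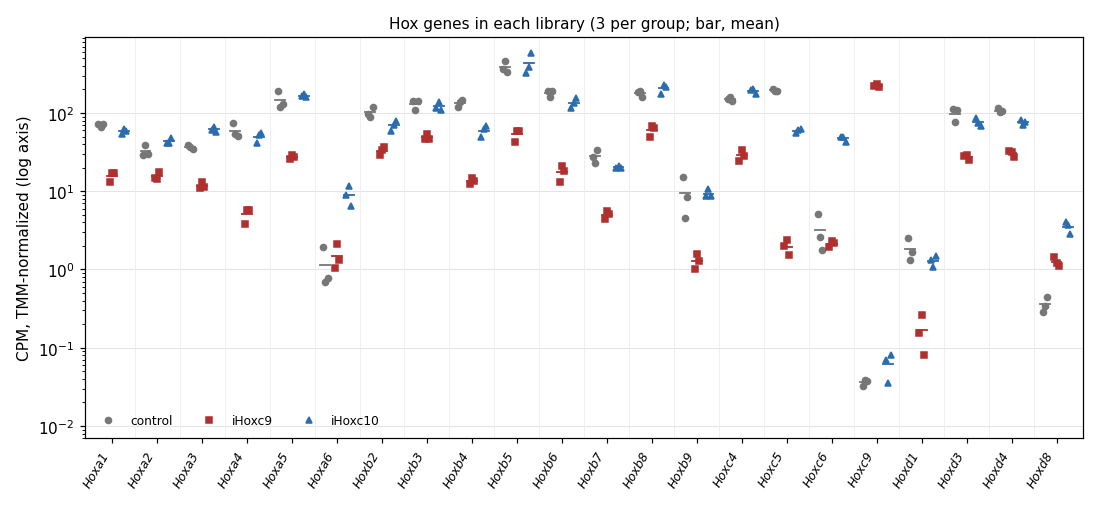
Level of 22 Hox genes in CPM (vertical log axis) in each of the 3 control, 3 iHoxc9 and 3 iHoxc10 libraries, with a bar at the mean. The red squares of iHoxc9 lie under both other groups for every gene of groups 1 to 5 shown and for Hoxb6 to Hoxb9, and above both for Hoxc9.

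Of the TALE homeodomain proteins, which bind DNA together with Hox proteins, 9 were tested: Pknox1 rose (0.72) and Pknox2 (-1.30) and Pbx3 (-0.51) fell, while the 6 others, the Meis genes included, did not pass. Pknox2 was at 39.8, 63.1 and 38.7 CPM in control and 17.6, 20.8 and 18.9 CPM in iHoxc9 neurons. The call was lost for Pbx3 without control library 1 or any iHoxc9 library (adjusted p up to 0.0727), so that the number that fell was then 1. The adjusted p given with a lost call, here and for other genes, is the highest over all alternatives run, edgeR and DESeq2. The median log2 fold change of the 9 was -0.25, and 6.95% of all genes rose and 7.13% fell.

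**Figure D4:**
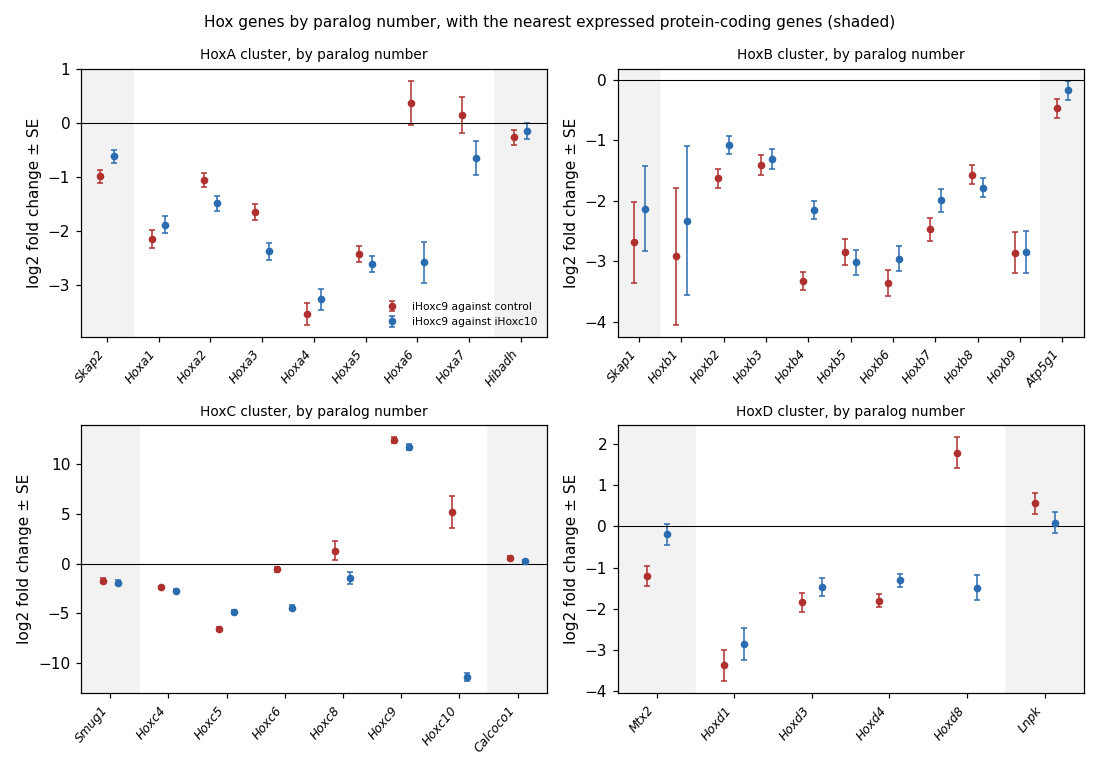
Log2 fold change ± SE (vertical axis, scaled separately in each panel) of the Hox genes of each cluster with a mean above 0.1 CPM, in order of paralog number, in iHoxc9 against control (red) and against iHoxc10 neurons (blue), with the nearest protein-coding gene of at least 1 CPM on either side of the cluster on gray. All genes 1 to 5 lie below 0 by more than their SE in both colors, with Hoxb1 the widest, while Hoxa6 lies below 0 in blue and above it in red and Hoxc6 lies farther below 0 in blue than in red. Hoxc10, induced in iHoxc10 neurons, is the lowest blue point.

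After Hoxc9, the gene with the largest fitted rise was Stra6l (also named Rbpr2), which encodes a membrane receptor for retinol-binding protein. It was at 0.0321, 0 and 0.187 CPM in control, 62.7, 60.8 and 56.0 CPM in iHoxc9 and 24.4, 25.01 and 24.1 CPM in iHoxc10 neurons, so that it rose in both Dox-treated lines and was higher in iHoxc9 (log2 fold change 1.29, SE 0.209, adjusted p = 0.000199 by edgeR). The gene with the most counts among the deepest falls was Sst, the peptide hormone somatostatin, at 166, 199 and 219.7 CPM in control, 0.391, 0.442 and 0.756 CPM in iHoxc9 and 2.66, 2.19 and 2.59 CPM in iHoxc10 neurons (log2 fold change -8.53, SE 0.277, adjusted p = 9.66e-16 by edgeR). It fell in both lines as well and was lower in iHoxc9 (log2 fold change -2.24). Their upstream sequences, with those of Hoxb8, are shown because Hox proteins of the posterior groups are known to bind AT-rich sites with the core TTTAT or TTTAC. The 250 bases before the start of transcription are given 5′ to 3′ from RefSeq (GRCm38.p6), with both cores on either strand in capitals, at chr4:45848566-45848815, plus strand for Stra6l, chr16:23890845-23891094, minus strand for Sst and chr11:96281655-96281904, plus strand for Hoxb8.
Stra6l: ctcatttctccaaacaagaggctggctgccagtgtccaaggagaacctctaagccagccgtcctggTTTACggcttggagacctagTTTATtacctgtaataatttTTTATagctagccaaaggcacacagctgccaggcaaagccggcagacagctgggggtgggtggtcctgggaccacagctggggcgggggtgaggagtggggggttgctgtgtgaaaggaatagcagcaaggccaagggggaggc
Sst: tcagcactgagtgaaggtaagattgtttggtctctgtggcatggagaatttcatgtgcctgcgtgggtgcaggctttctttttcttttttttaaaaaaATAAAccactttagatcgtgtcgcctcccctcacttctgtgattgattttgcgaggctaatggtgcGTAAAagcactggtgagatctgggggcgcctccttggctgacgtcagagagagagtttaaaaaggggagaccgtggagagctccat
Hoxb8: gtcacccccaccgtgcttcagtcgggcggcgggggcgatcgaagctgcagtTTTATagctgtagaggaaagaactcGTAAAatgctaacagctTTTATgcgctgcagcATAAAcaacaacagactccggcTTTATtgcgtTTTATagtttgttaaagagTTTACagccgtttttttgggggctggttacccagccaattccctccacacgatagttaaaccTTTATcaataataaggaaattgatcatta
TTTAT occurred 2 times in the window of Stra6l, 1 time in that of Sst and 6 times in that of Hoxb8, and TTTAC 1, 1 and 2 times. The cores are common: TTTAT stood in 37.3% of the 32851 windows of all genes, in 35.7% of the 305 windows of genes called higher and in 30.5% of the 213 windows of genes called lower. For TTTAC the shares were 28.3%, 24.3% and 24.4%. Hoxb8 was chosen after the windows of 10 genes had been read, as the one with the most cores, and the windows of Hoxb4 and Cyp26a1 among them held 0 of either. Hoxc5 had no window in the set.

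The other genes with the largest rises had varied roles. Pou4f3, a POU factor of sensory cells, had no count in control and was at 2.78, 2.80 and 2.67 CPM, at least 25.4-fold higher. Grm5, a glutamate receptor, was at least 74.8-fold higher (9.86, 6.50 and 7.88 CPM), the factor Sp9 at least 27.7-fold, the collagen receptor Itga1 at least 25.9-fold, the factor Osr2 at least 21.3-fold and the calcium-binding protein Scgn at least 11.1-fold. The rest of the 15 were Slc17a6, Dgkb, Adamts19, Sim1, Shox2, Dbx1 and Ldb2, with log2 fold changes from 4.85 to 5.84. Itga1 and Shox2 were near 0 in iHoxc10 neurons too (0, 0.0717 and 0 CPM and 0.0700, 0.179 and 0.0810 CPM), whereas Adamts19 was at 5.20, 8.04 and 4.86 CPM in iHoxc9 and 3.22, 4.66 and 2.71 CPM in iHoxc10 (adjusted p between the lines = 0.0817 by edgeR, and 5.48e-08 in the fit of these 6 libraries with the replicate block).

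The genes with the largest falls, besides Sst and Hoxc5, fell from low levels. The glycoprotein hormone subunit Cga, the interleukin receptor Il1r1, the cardiac and hindbrain factor Tbx20 and the fibrinogen chain Fgb were at 1.39, 1.32, 4.17 and 2.71 CPM on average in control and at 3 counts or fewer in every iHoxc9 library, at least 12.8-, 12.2-, 38.5- and 25.1-fold lower. Spp2, ccdc198, Corin and 1700024G13Rik were also at 3 counts or fewer in iHoxc9, at least 56.8-, 30.5-, 11.6- and 13.8-fold lower, and the claudin Cldn3 fell from 7.55, 14.3 and 9.17 CPM to 0.0782, 0.118 and 0.239 CPM. Tbx20 was at 0.980, 1.33 and 0.729 CPM in iHoxc10 neurons (adjusted p between the lines = 2.63e-06 by edgeR). The embryonic globins Hbb-bh1 and Hbb-y and the alpha globin Hba-a1 made up the rest of the 15. Hba-a1 has a near-identical copy, and its count is uncertain. All 30 genes stayed past the adjusted p of 0.01 under each of the alternatives run.

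Globins are markers of blood, and a list of 20 genes of blood, endothelium and mesenchyme had a lower sum. The list summed to between 31.3 and 35.0 CPM in control, 8.76 and 14.3 CPM in iHoxc9 and 8.44 and 9.28 CPM in iHoxc10 neurons. Of the 20 genes 9 fell (7.13% of all genes fell) and 0 rose, with a median log2 fold change of -1.62, and 9 of the 20 were at 3 counts or fewer in every iHoxc9 library, against 4 in control. Within the run 2 of the 20 were higher and 0 lower in iHoxc9 than in iHoxc10 neurons, beside 2.60% and 2.40% of all genes. Of 22 mesoderm and endoderm genes 5 fell, Twist1 (-4.07), Foxa1 (-1.61) and Gata4 among them, and Gata6 rose. The number that fell was 3 without the first control library and 1, 3 and 2 without iHoxc9 library 1, 2 and 3. Of 13 pluripotency genes 8 were at 3 counts or fewer in every iHoxc9 and 6 in every control library, and 1, Lin28a, fell from 102, 146 and 159 CPM to 56.6, 48.0 and 57.2 CPM. Calls were lost by edgeR for Foxa1 without iHoxc9 library 1 or 3 (adjusted p up to 0.013) and Gata4 without control library 2 or any iHoxc9 library (adjusted p up to 0.0236). The part of these cells in the differences of neuronal genes was not tested.

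Several genes of motor neuron identity were lower. Of 17 genes 7 fell and 0 rose, beside 7.13% and 6.95% of all genes, and the list had a median log2 fold change of -0.44. Its sum was between 2411 and 3244 CPM in control and between 1526 and 1721 CPM in iHoxc9 neurons. The deepest fall was that of Prph, the intermediate filament peripherin of neurons that project to the periphery, at 163, 112 and 156 CPM in control, 11.8, 15.8 and 12.3 CPM in iHoxc9 and 31.6, 40.7 and 36.9 CPM in iHoxc10 neurons (log2 fold change -3.43, SE 0.218, adjusted p = 1.59e-10 by edgeR). The motor neuron factors Mnx1 (-1.13) and Lhx3 (-1.16) and the acetylcholine genes Chat (-1.51) and Slc18a3 (-0.81) were among the 7, with Cntn2 and Lmo4. Isl1, the shared factor of motor neurons, was at 115, 76.4 and 94.8 CPM in control and 59.3, 46.6 and 51.8 CPM in iHoxc9 neurons and did not pass (log2 fold change -0.86, SE 0.256, adjusted p = 0.0165 by edgeR). Leaving out iHoxc9 library 1 or 2 reduced the 7 to 4, and the edgeR calls lost were Lmo4 without control library 3 or iHoxc9 library 1 or 2 (adjusted p up to 0.0174), Slc18a3 without control library 2 or iHoxc9 library 1 or 2 (adjusted p up to 0.0198) and Cntn2 without control library 2 or iHoxc9 library 1 or 2 (adjusted p up to 0.0264).

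Motor neurons are grouped in columns by their targets, and the genes of the columns changed in both directions. Of 11 genes of the limb-innervating column, Foxp1 and Gfra1 rose and 5 fell: the factor Runx1 at 7.13, 3.85 and 4.83 CPM in control and 0.704, 0.795 and 0.756 CPM in iHoxc9 neurons (log2 fold change -2.80, SE 0.351, adjusted p = 3.78e-06 by edgeR), Lhx1 (-1.87), Etv4 (-1.34), Pou3f1 (-1.20) and Crabp1 (-1.02). The number that rose was 1 when the edgeR call was lost for Foxp1 without control library 3 or iHoxc9 library 1 (adjusted p up to 0.0304) and with the length trend removed. All of Foxp1, Gfra1, Lhx1, Runx1 and Pou3f1 were lower in iHoxc9 than in iHoxc10 neurons, with log2 fold changes of -1.22, -1.33, -4.10, -3.44 and -1.22. Among 12 genes of the trunk columns, the column of preganglionic neurons included, Mecom rose from 5.40, 5.12 and 3.74 CPM to 23.0, 17.9 and 22.7 CPM (log2 fold change 2.16, SE 0.188, adjusted p = 1.92e-08 by edgeR), with Zeb2 (1.45) and Etv1 (1.38), and Prdm16 (-1.37) and Lhx3 fell. Mecom and Zeb2 were higher than in iHoxc10 neurons as well (2.17 and 1.06), where Mecom was at 4.62, 5.27 and 4.25 CPM. The median log2 fold change was -0.42 over the 11 and -0.08 over the 12 genes, and 6.95% of all genes rose and 7.13% fell.

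Several factors of spinal interneurons rose from low levels. Of 30 genes of interneuron classes 7 rose, all with a log2 fold change above 2, and 4 fell, beside 6.95% and 7.13% of all genes. Sim1, a factor of the V3 class, was at 0.739, 0.308 and 0.337 CPM in control, 19.6, 16.4 and 15.2 CPM in iHoxc9 and 4.87, 7.63 and 3.44 CPM in iHoxc10 neurons (log2 fold change 5.16, SE 0.360, adjusted p = 6.76e-10 by edgeR). Uncx (3.85), Tlx3 (3.36), a factor of excitatory neurons, Sox14 (2.52) and Foxp2 (2.07) were among the 7 too, and Ptf1a, of inhibitory dorsal neurons, rose from no count to at most 1.32 CPM. The 4 that fell were Tal1 (-4.05) and Gata2 (-1.80), factors of the inhibitory V2b class, with Nkx2-9 (-3.30) and Lhx1. Tal1 is also counted above among the blood genes that fell, and Gata3, another factor of the V2b class, did not pass. Whether the falls of Tal1 and Gata2 came from neurons or from blood cells was not tested. The edgeR call was lost for Sox14 without control library 3 or iHoxc9 library 2 (adjusted p up to 0.0234) and Gata2 without control library 1 or 2 or iHoxc9 library 1 or 3 (adjusted p up to 0.0302). Of the 30 genes 15 were under 1 CPM in both groups, and these counts were the same with the length trend removed. Against iHoxc10 neurons 8 of the 30 were higher in iHoxc9 and 1 was lower, beside 2.60% and 2.40% of all genes. Over the 30 genes the median log2 fold change was 0.23, beside 0.00 over all genes.

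Factors of the progenitor domains from which these neurons arise moved in both directions. Dbx1, the factor of the p0 domain, was at 0.482, 0.501 and 0.524 CPM in control, 16.3, 14.2 and 17.4 CPM in iHoxc9 and 0.875, 0.537 and 0.851 CPM in iHoxc10 neurons (log2 fold change 4.98, SE 0.343, adjusted p = 5.7e-10 by edgeR). Nkx2-2, the factor of the ventral p3 domain that gives V3 neurons, rose from 8.83, 11.7 and 5.09 CPM to 29.4, 32.5 and 26.6 CPM (1.79), and Neurog2 (1.13), Sox2 (1.10) and Sox1 (0.92) rose. Its relative Nkx2-9, also a factor of the p3 domain, fell, so the genes of that domain did not move together. Of 29 domain genes 5 rose and 7 fell, beside 6.95% and 7.13% of all genes. Olig2, the factor of motor neuron progenitors, was at 45.5, 116 and 58.1 CPM in control and 32.1, 28.1 and 32.5 CPM in iHoxc9 neurons (log2 fold change -1.25), and Olig1 (-2.16), Nkx6-2 (-1.94), Irx3 (-1.54), Irx5 (-1.28), Neurog1 (-2.33) and Nkx2-9 fell with it. The second control library, with the most RNA of cell cycle genes, was the highest in Olig2, Olig1, Neurog1 and Nkx2-9. Dbx1, Irx3, Irx5 and Neurog2 also differed between iHoxc9 and iHoxc10 neurons (4.40, -1.56, -1.63 and 1.74), and Olig2 did not pass (0.01, adjusted p = 1 by edgeR). Calls against control were lost by edgeR for Olig2 without control library 2 or iHoxc9 library 2 (adjusted p up to 0.014), Neurog2 without control library 1 (adjusted p up to 0.011) and Sox1 without control library 3 (adjusted p up to 0.01). The 29 genes had a median log2 fold change of 0.00.

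**Figure D5:**
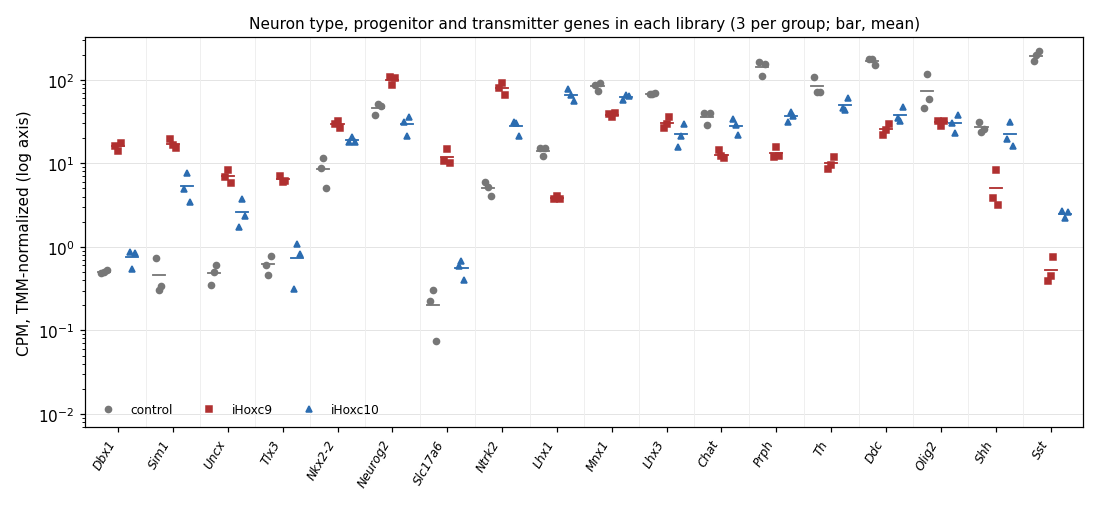
Level of 18 genes of neuron types, progenitor domains and transmitters in CPM (vertical log axis) in each of the 3 control, 3 iHoxc9 and 3 iHoxc10 libraries, with a bar at the mean. From Dbx1 to Ntrk2 the iHoxc9 squares lie above the control circles, and from Lhx1 to Sst they lie below them.

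Among transmitter genes, Slc17a6, the vesicular glutamate transporter of most excitatory spinal neurons, was at 0.225, 0.308 and 0.0748 CPM in control, 10.6, 14.9 and 10.1 CPM in iHoxc9 and 0.595, 0.681 and 0.405 CPM in iHoxc10 neurons (log2 fold change 5.84, SE 0.362, adjusted p = 1.17e-10 by edgeR), and Slc17a7, its relative, rose to 2.74, 2.77 and 3.02 CPM (1.96). Slc32a1, the transporter of inhibitory neurons, was under 1 CPM in control and fell (-3.13). The catecholamine enzymes fell: Th at 107, 71.9 and 71.0 CPM in control, 8.57, 9.56 and 12.1 CPM in iHoxc9 and 46.4, 43.4 and 60.2 CPM in iHoxc10 neurons (log2 fold change -3.05, SE 0.235, adjusted p = 2.87e-09 by edgeR), Ddc from 179, 176 and 151 CPM to 21.8, 25.3 and 29.8 CPM (-2.72) and Dbh (-2.38). With Chat and Slc18a3, 6 of 19 transmitter genes fell and 2 rose, beside 7.13% and 6.95% of all genes. Phox2a, a factor of noradrenergic neurons, fell as well (-1.92). The 19 transmitter genes had a median log2 fold change of -0.37.

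Several receptors for neurotrophic factors rose. Ntrk2, the receptor of BDNF, was at 5.94, 5.16 and 4.08 CPM in control, 79.9, 91.5 and 66.7 CPM in iHoxc9 and 31.5, 30.4 and 21.4 CPM in iHoxc10 neurons (log2 fold change 3.97, SE 0.225, adjusted p = 2.71e-11 by edgeR). The GDNF-family receptors Gfra3 (2.97) and Gfra2 (2.83) and the HGF receptor Met (2.53) rose, so that with Gfra1 5 of 13 receptors rose. In the list of 20 sensory-type factors, 7 rose, with Pou4f3, Tlx3, Eya1 (2.01), Six4 (1.38) and Pou4f1 (1.33) beside Ntrk2 and Neurog2, and 5 fell, Runx1, Neurog1 and Phox2a among them. Of the 14 neural crest and placode genes 3 rose (Eya1, Eya2 and Six4) and 2 fell, Sox10 among them. The call was lost by edgeR for Six4 without control library 1 or 3 (adjusted p up to 0.0141). Median log2 fold changes were 0.57 over the 13 receptors, 1.02 over the 20 sensory-type factors and 0.18 over the 14 neural crest genes. These counts stand beside 6.95% of all genes that rose and 7.13% that fell.

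Somatostatin was 1 of 23 neuropeptide genes tested, of which 5 rose and 5 fell, beside 6.95% and 7.13% of all genes. Adcyap1, the peptide PACAP, was at 2.31, 0.886 and 2.28 CPM in control, 46.0, 37.9 and 45.3 CPM in iHoxc9 and 6.65, 8.03 and 5.02 CPM in iHoxc10 neurons (log2 fold change 4.55, SE 0.362, adjusted p = 5.03e-09 by edgeR). Grp (3.04), Gal (2.71), Cartpt (2.25) and Chgb (0.68) rose, and Trh (-2.62), Calca (-1.80), Scg2 (-0.90) and Nmb (-0.84) fell with Sst. Of the 5 receptors for somatostatin, Sstr1 fell from 8.19, 4.24 and 4.98 CPM to 0, 0.177 and 0.0796 CPM (log2 fold change -5.90, SE 0.521, adjusted p = 2.24e-08 by edgeR), and Sstr2 (-1.34) and Sstr3 (-1.07) fell. Sstr1 was at 4.55, 7.02 and 2.47 CPM in iHoxc10 neurons and so differed within the run (-5.59). Less stable by edgeR were Nmb without control library 1 or iHoxc9 library 1 (adjusted p up to 0.657), Scg2 without iHoxc9 library 2 (adjusted p up to 0.0111), Chgb without control library 3 or iHoxc9 library 1 (adjusted p up to 0.0177) and Sstr3 without control library 1 or 2 or any iHoxc9 library (adjusted p up to 0.042), whose calls were then lost. The median log2 fold change was -0.11 over the peptides and -1.07 over the 5 receptors.

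Retinoic acid is the signal that caudalizes these cultures, and 2 enzymes that destroy it moved in opposite directions. Cyp26a1 was at 7.42, 4.16 and 6.03 CPM in control, 111, 148 and 134 CPM in iHoxc9 and 20.5, 41.4 and 29.0 CPM in iHoxc10 neurons (log2 fold change 4.48, SE 0.235, adjusted p = 8.87e-12 by edgeR), and Cyp26b1 at 345, 173 and 179 CPM in control, 19.7, 29.2 and 33.9 CPM in iHoxc9 and 189, 344 and 301 CPM in iHoxc10 neurons (log2 fold change -3.07, SE 0.274, adjusted p = 2.61e-08 by edgeR). In day 2 progenitors the levels were 110.1 ± 16.2 CPM and 97.8 ± 20.1 CPM (SD, n = 3), so that Cyp26a1 was near its day 2 level in iHoxc9 neurons. Lrat (-3.60), the enzyme that forms retinyl esters, the receptor Rxrg (-1.82) and the binding proteins Crabp1 and Crabp2 (-1.01) fell, and Aldh1a2, which makes retinoic acid, was at 35.0, 27.5 and 24.7 CPM in control, 19.4, 27.0 and 18.5 CPM in iHoxc9 and 203, 185 and 163 CPM in iHoxc10 neurons and did not pass against control (adjusted p = 0.149 by edgeR). Of the 24 genes of the pathway 2 rose, Stra6l and Cyp26a1, and 6 fell, beside 6.95% and 7.13% of all genes. Their median log2 fold change was -0.18.

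In the Hedgehog pathway, Shh, the ligand, fell from 31.4, 24.0 and 26.1 CPM to 3.87, 8.36 and 3.15 CPM (-2.39) with the coreceptor Gas1 (-1.32), while the inhibitor Hhip (2.81), the coreceptor Boc (1.85) and the factors Gli2 (1.65) and Gli3 (1.05) rose. Hhip was at 2.89, 4.12 and 1.42 CPM in control, 20.6, 23.3 and 15.1 CPM in iHoxc9 and 3.33, 4.87 and 3.40 CPM in iHoxc10 neurons. Of 14 genes 4 rose and 2 fell, and the number that rose was 2 without the first or the third and 8 without the second control library. The edgeR calls lost were Gli2 without control library 1 or 3 (adjusted p up to 0.0164) and Gli3 without control library 1 or 3 or any iHoxc9 library (adjusted p up to 0.0609). Within the run 5 of the 14 were higher and 1 lower in iHoxc9, beside 2.60% and 2.40% of all genes. In the Wnt pathway 12 of 53 genes rose, with Rspo2 (3.60), Lgr5 (2.76) and Fzd10 (2.33), and 6 fell, with the ligand Wnt7b (-1.68). With the length trend removed 10 rose and 6 fell. Fzd10 was at 4.34, 7.74 and 6.03 CPM in control, 30.4, 32.6 and 28.0 CPM in iHoxc9 and 12.9, 14.2 and 13.3 CPM in iHoxc10 neurons. Median log2 fold changes were 0.55 for Hedgehog and 0.50 for Wnt genes, and 6.95% of all genes rose and 7.13% fell.

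Of 43 genes of BMP and TGF-beta signaling 10 rose and 8 fell, or 7 and 7 with the length trend removed. The number that rose was 4 without the third and 6 without the first control library, and 6 without the first or the third iHoxc9 library. The BMP target genes Id1 (-1.77), Id2 (-0.78) and Id3 (-1.08) all fell, Id1 from 11.6, 17.5 and 20.3 CPM to 5.12, 4.68 and 4.70 CPM. Gdf6, Bmp3, Tgfb2, Bmpr2 and Bmp7 were among the 10 that rose. In FGF signaling 6 of 31 genes rose and 4 fell, or 4 and 4 with the length trend removed, and 3 rose without the first control or the first iHoxc9 library. The ligand Fgf10 rose from 0.193, 0.385 and 0.299 CPM to 4.19, 3.38 and 4.14 CPM (3.74). The other rises were Fgf14, Il17rd, Spry2, Spred1 and Fgfr1, and the falls were Dusp6 (-1.67), Fgf15, Etv4 and Fgf9. In the Notch pathway 4 of 19 genes rose, Dner (1.79), Jag1, Notch1 and Notch3, and the target Hes5 (-1.19) and Lfng (-0.90) fell. Of the Id genes, Fgf10, Dusp6 and the Notch genes named, edgeR calls were lost for Id2 without control library 1 or 3 or any iHoxc9 library (adjusted p up to 0.0382) and Notch1 without control library 1 or 3 or any iHoxc9 library (adjusted p up to 0.0604). Lost calls of the other BMP and FGF genes named are not given gene by gene. Median log2 fold changes were 0.49 for BMP and TGF-beta, -0.10 for FGF and 0.08 for Notch genes, and 6.95% of all genes rose and 7.13% fell.

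Of 69 axon guidance genes 27 rose and 3 fell, beside 6.95% and 7.13% of all genes, and with the trend removed 22 rose and 5 fell. Their median log2 fold change was 0.46 against control and -0.06 against iHoxc10 neurons, where 7 were higher and 5 lower, beside 2.60% and 2.40% of all genes. Sema3c, a secreted semaphorin, was at 9.41, 9.24 and 5.54 CPM in control, 78.5, 64.8 and 70.9 CPM in iHoxc9 and 30.9, 26.8 and 16.4 CPM in iHoxc10 neurons (log2 fold change 3.14, SE 0.217, adjusted p = 5.7e-10 by edgeR), and Dcc, the netrin receptor of commissural axons, at 34.1, 36.2 and 22.4 CPM in control, 165, 142 and 129.8 CPM in iHoxc9 and 72.9, 67.1 and 43.7 CPM in iHoxc10 neurons (log2 fold change 2.23, SE 0.273, adjusted p = 2.78e-06 by edgeR). Both differed within the run (1.53 and 1.25), as did Epha3 (1.86), Plxna2 (1.14) and Sema3a (1.76). The netrin receptor Unc5a fell from 91.4, 159.5 and 88.7 CPM to 37.5, 35.1 and 38.9 CPM (-1.61). Plxnc1, Nrp1, Robo1 and Robo2 rose against control (2.41, 1.55, 1.12 and 1.13) and passed within the run neither in the fit of all libraries nor in that of the 6 libraries with the replicate block (edgeR, adjusted p of at least 0.0286).

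Of 30 cadherins and protocadherins 12 rose and 1 fell, or 10 and 2 with the length trend removed. Cdh8 (3.34), Cdh9 (4.77), Pcdh11x (4.10) and Pcdh17 (3.45) were higher within the run as well, and Cdh1, the epithelial cadherin, fell from 3.40, 5.97 and 2.88 CPM to 0.313, 0.383 and 0.199 CPM. Of 62 integrin, laminin and collagen genes 10 rose and 4 fell, or 7 and 5 with the trend removed, with Itga1 and the collagen Col12a1 (2.83) among the rises. Of 25 glutamate receptor genes 7 rose and 3 fell, or 7 and 5, and of 54 potassium channel genes 12 rose and 5 fell, or 10 and 6. Beside these counts, 6.95% of all genes rose and 7.13% fell, and the falls among potassium channels and among integrins, laminins and collagens were near that share. The channel Kcnd2 was at 0.675, 0.154 and 0.412 CPM in control and 9.07, 8.42 and 6.73 CPM in iHoxc9 neurons (4.24), and Kcnf1 (2.92) and Kcnip2 (3.17) were higher within the run too. Medians of the log2 fold change were 0.53 for cadherins, 0.27 for integrins, laminins and collagens, 0.65 for glutamate receptors and 0.31 for potassium channels, and became 0.27, -0.04, 0.48 and 0.11 with the length trend removed.

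Of 18 genes shared by all neurons, Map2 (1.86) and Rbfox3 (1.25) rose and Syt4 (-2.14), Gap43 (-0.90) and Nefh (-0.67) fell. Of 15 genes of glia and their precursors 5 rose, Sox9 (1.67), Nfia (1.39) and Nfib (2.32) among them, and 4 fell. The falls were Pdgfra, Sox10, Olig1 and Fabp7 (-1.75). Of these 3 were past a log2 fold change of -2, against 1 of the rises past 2. Without the first control library 3 fell. Of 39 cell cycle genes Ccnd1, the cyclin D1 of the G1 phase, fell from 16.4, 39.2 and 22.5 CPM to 0.665, 1.32 and 1.07 CPM (log2 fold change -4.64, SE 0.289, adjusted p = 1.17e-10 by edgeR) and was at 13.7, 17.1 and 19.97 CPM in iHoxc10 neurons. Cenpa, Pcna and Cdk1 fell by less than 1 on the log2 scale, and the inhibitor Cdkn1c rose (1.13). The edgeR call was lost for Pcna without control library 3 or iHoxc9 library 1 or 2 (adjusted p up to 0.0434) and Gap43 without control library 1 or iHoxc9 library 1 or 2 (adjusted p up to 0.0371). Without the second control library 5 cell cycle genes rose. Of 22 hypoxia and stress genes 2 rose and 5 fell, or 2 and 2 with the length trend removed, and 3 fell without the third control or without iHoxc9 library 1 or 3. Of the 18 caudal axial and hindbrain genes 3 rose, Cyp26a1 among them, and 5 fell, with Tbx20 and En2 (-2.27) among them. Only Cyp26a1 was left among the rises with the length trend removed, and 1 rise was left without the first control, the first iHoxc9 or the third iHoxc9 library. Of the 4 Y-linked genes Kdm5d rose (0.89), and it did not pass with the length trend removed, without the third control library or without the second iHoxc9 library. Median log2 fold changes were 0.15 for the neuronal, 0.01 for the glial, -0.10 for the cell cycle, -0.19 for the hypoxia and 0.12 for the caudal and hindbrain genes. Beside these counts, 6.95% of all genes rose and 7.13% fell, and the 4 falls among 39 cell cycle genes were near that share.

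Imprinted genes, which are read from 1 parental allele, were examined because their levels can differ between stem cell lines. Of 37 genes 10 rose and 5 fell, beside 6.95% and 7.13% of all genes. Rtl1 (3.84) and Dlk1 (3.06), read from the paternal allele of the Dlk1-Meg3 locus, rose, and Rian (-1.25) and Mirg (-1.16), read from the maternal allele of the same locus, fell. Dlk1 was at 4.85, 10.01 and 6.40 CPM in control, 53.6, 71.3 and 51.4 CPM in iHoxc9 and 50.3, 47.3 and 46.7 CPM in iHoxc10 neurons, and Rian at 1529, 456 and 1141 CPM in control, 503, 472 and 341 CPM in iHoxc9 and 493, 521 and 326 CPM in iHoxc10 neurons. The libraries of Rian overlapped between all 3 groups, and calls were lost by edgeR for Rian without control library 1 or 3 or iHoxc9 library 2 or 3 (adjusted p up to 0.0451) and Mirg without control library 1 or 3 (adjusted p up to 0.02). Neither Dlk1 nor Rian passed between iHoxc9 and iHoxc10 neurons in the fit of all libraries (adjusted p of 0.729 and 1 by edgeR), while in the fit of the 6 libraries with the replicate block the values were 0.000252 and 0.463. Igf2 (2.84), which shares 70.4% of its exons with other annotated genes, and Grb10 (1.48) rose and were still lower than in iHoxc10 neurons (-1.72 and -1.69). The number that fell was 2 without the first and 3 without the third control library, and 3 without the second iHoxc9 library. Over genes with a mean of at least 10 CPM, the median log2 fold change of a chromosome lay between -0.02 and 0.24 against control and between -0.004 and 0.11 against iHoxc10 neurons. Over the 37 imprinted genes it was 0.29.

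Within the run, 544 genes were higher (2.60%) and 502 lower (2.40%) in iHoxc9 than in iHoxc10 neurons, 1046 in all at an adjusted p under 0.01. The split depended on the setting: 477 were higher and 599 lower with DESeq2's size factors, 653 and 881 by DESeq2's Wald test, 579 and 671 with the exon-length trend removed, and 288 and 480 without iHoxc10 library 3. Libraries of these 2 groups with the same replicate number deviated together. With only these 6 libraries in the fit, 2229 genes passed, and 5807 passed when the replicate number was added to that fit as a block (a fit chosen after the data were seen), so the number of smaller differences within the run depended on the fit. Leaving out single libraries gave between 670 and 768. The number was 670, 689 and 693 without iHoxc9 library 1, 2 and 3, and 675 without the second iHoxc10 library. The genes described above as different within the run are those of the fit of all libraries. Marker sums differed between the 2 lines as well. The 18 genes shared by all neurons summed to 11650 to 13040 CPM in iHoxc9 and 16200 to 17560 CPM in iHoxc10 neurons, with 0 of the 18 higher and 6 lower in iHoxc9 and a median log2 fold change of -0.51. The 39 cell cycle genes summed to 2521 to 2821 CPM and 1934 to 2404 CPM, with 6 higher and 2 lower and a median of 0.58. Their part in the differences within the run was not tested.

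Against the same control libraries, 24 of the 20944 genes tested changed in opposite directions in the 2 lines and differed between them within the run. A difference between the lines follows from opposite changes of the same libraries, so it is not a separate result. Lhx1, a factor of motor neurons of the lateral limb column and of several interneuron classes, was at 15.2, 12.2 and 15.1 CPM in control, 3.75, 4.06 and 3.78 CPM in iHoxc9 and 77.1, 66.2 and 55.3 CPM in iHoxc10 neurons. Hoxa3 was at 39.2, 37.0 and 35.1 CPM in control, 10.9, 13.2 and 11.2 CPM in iHoxc9 and 60.5, 66.8 and 57.4 CPM in iHoxc10 neurons, and Pbx3 and the secretogranin Scg2 also fell in iHoxc9 and rose in iHoxc10 neurons. Grin2c, a subunit of NMDA receptors, was at 3.28, 1.39 and 3.03 CPM in control, 8.14, 11.6 and 8.24 CPM in iHoxc9 and 0.910, 0.860 and 0.527 CPM in iHoxc10 neurons and went the other way. Reads of a gene and an antisense partner cannot be told apart here, since the strand setting of the counting was not given in the sources used, and Cga, Ptf1a, Slc32a1, Hes5, Shh, Ccnd1 and Cdkn1c share between 21.9% and 40.4% of their exons with such partners.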

How the data were processed

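RNA-seq of 18 libraries of mouse embryoid bodies was analysed, in 6 groups of 3 taken from the labels. The authors deposited raw read counts in 1 table per group of 3 libraries, with whole-number counts for 27179 genes of the mm10 RefSeq annotation, counted with featureCounts. The submitters' processing notes name STAR 2.7.0c, Picard 2.8.2 and DESeq2 1.20.0. Totals were 24498630 to 33168533 counts per library, and 0 columns were left unused. Coordinates and 25275 symbols were matched by gene ID to RefSeq, and exon lengths and shared exons to GENCODE M21. A length was found for 17618 (84.12%) of the genes tested, and the others were left uncorrected where the length trend was removed.

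All 18 libraries entered 1 fit by edgeR 4.0.16 (R 4.3.3) with TMM normalization, its quasi-likelihood test and Benjamini-Hochberg adjustment over the 20944 genes that held at least 1 count over the libraries of the 4 Dox-treated lines, so that genes read in control alone were left out. CPM values are TMM-normalized. In simulated counts of iHoxc9 against control (18996 genes), 99.5% of 200 changed genes were recovered. The changes were set past the call threshold, in genes of at least 1 CPM, with no effect of run, line or exon length. The simulation therefore checks the code and does not measure how many real changes were found.

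Named were Hoxc9, Stra6l and Hoxc5, the 15 largest rises and 15 largest falls among called genes with a mean of at least 1 CPM in the higher group and no overlap between groups, and members of 36 gene lists. The members and lists were chosen with earlier results of these data known. Lhx1, Hoxa3, Grin2c and genes beside the Hox clusters were also picked after their values were seen. Results of some genes are not reported here.

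Alternatives were DESeq2 1.42.0 (its size factors and its Wald test), other count filters, a block for the replicate number, a fit of only the groups compared, leaving out each library, a log2 fold change of 1, and 2 chosen after seeing the data: the exon-length trend removed, and the block with only 2 groups. Deviations of libraries with the same number correlated by 0.465, 0.423 and 0.537 between iHoxc9 and iHoxc10, which counts as paired, and by 0.20, -0.116 and 0.00583 between iHoxc9 and control, which does not.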

Additional observations from a re-analysis of the deposited data

Results flagged for a closer look

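For 5 named genes the fold changes against control went in opposite directions in iHoxc9 and iHoxc10 neurons, and the difference between these lines passed the test within the run (edgeR, adjusted p under 0.01). The differences, iHoxc9 less iHoxc10 on the log2 scale, were -1.64 for Scg2, -4.10 for Lhx1, -1.58 for Pbx3 and -2.38 for Hoxa3, which were lower in iHoxc9, and 3.59 for Grin2c, which was higher. Both fold changes share the control libraries. The difference between the lines leaves those out but reuses the iHoxc9 and iHoxc10 libraries of both. Its sign follows from the opposite directions, so it is not separate support.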

How the results depend on the processing

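The number of called genes stayed between 467 and 566 under the alternatives of tool, normalization, filter, samples and length, and became 1636 (803 higher, 833 lower) at a log2 fold change of 1 in place of 566 at 2. Leaving out 1 library at a time gave 472 to 618 called genes, 1509 to 4135 past the adjusted p alone, 670 to 768 against iHoxc10 and 14 to 14 of the Hox genes of groups 1 to 5. With the replicate block in the fit of all libraries the 3 counts against control were 545, 2821 and 14, and 998 genes differed from iHoxc10. With only the 2 groups compared, 2229 genes differed from iHoxc10, and 5807 when the replicate block was added to that fit. Against control, where the numbers do not pair the samples, the same fit gave 467 and 2294. The cause of the shifts was not tested. Of 323 genes whose fold change was repeated, 0 changed sign and 85 lost their call in at least 1 alternative, with 50 lost without the third control library. Genes at or under 3 counts in a group allow only a lower bound on their fold.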

Other observations

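Of the genes beside the Hox clusters, picked after their values were seen, the nearest at the end that holds group 1 were lower. The nearest protein-coding gene with at least 1 CPM at that end fell in all 4 clusters: Skap2, an adaptor protein 142.8 kb from HoxA, by 0.99 on the log2 scale, Skap1, its relative 96.32 kb from HoxB, by 2.69, Smug1, a DNA glycosylase 116.4 kb from HoxC, by 1.74, and Mtx2, a mitochondrial protein 60.67 kb from HoxD, by 1.21. Of all genes tested 7.13% fell. Smug1 was at 202, 76.8 and 178 CPM in control, 41.3, 49.5 and 45.7 CPM in iHoxc9 and 163, 212 and 148 CPM in iHoxc10 neurons. Against iHoxc10, Skap2 (-0.62, adjusted p = 0.00167 by edgeR) and Smug1 (-1.94, adjusted p = 5.78e-06 by edgeR) stood beside Skap1 (-2.13, adjusted p = 0.0637 by edgeR) and Mtx2 (-0.20, adjusted p = 0.735 by edgeR), and the last 2 values were 1.61e-07 and 0.00132 by edgeR with only these 6 libraries and the replicate block. At the other end the 4 nearest such genes, Hibadh, Atp5g1, Calcoco1 and Lnpk, did not pass against control. Farther out at that end of HoxC, Atp5g2 fell (-0.57, adjusted p = 0.0084 by edgeR), so the contrast between the ends holds for the nearest genes only.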
